A study of Ovis aries with 3 samples.

Results

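The genes described here are *EPCAM*, *CDH1*, *CLDN4*, *CLDN7*, *KRT7*, *KRT8*, *KRT18*, *KRT19* and *AP1M2*, the surface adhesion, tight junction, simple keratin and sorting genes by which embryonic epithelia are recognised. They were picked by gene symbol and are 9 of 26478 annotated genes. Each symbol stood on 1 row of the count tables, under the identifiers ENSOARG00020005022 (*EPCAM*), ENSOARG00020008507 (*CDH1*), ENSOARG00020021120 (*CLDN4*), ENSOARG00020017686 (*CLDN7*), ENSOARG00020014582 (*KRT7*), ENSOARG00020009368 (*KRT8*), ENSOARG00020009288 (*KRT18*), ENSOARG00020005482 (*KRT19*) and ENSOARG00020005364 (*AP1M2*). The data are droplet single-cell RNA-seq counts of whole sheep embryos in 3 libraries. E19 HSTS is a 19-day embryo of the Hulunbuir short-tailed breed, whose animals carry a missense change in the *T* (Brachyury) gene. E19 HS is a 19-day embryo of Hu sheep, wild type for *T*, and E16 HS is 16-day Hu sheep material of the same wild-type genotype. The study's methods name a single embryo for either E19 library and several embryos at E16, and E16 HSTS was not analysed here. The ewes of both breeds were brought into oestrus by hormones and inseminated, no treatment of the embryos is named, all embryos were dissociated with collagenase, and red blood cells were lysed in all of them. Breed and the *T* genotype cannot be told apart, because every HSTS cell differs from every HS cell in both.

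Epithelial cells hold to each other through lateral junctions. EPCAM is a surface glycoprotein that mediates contact between epithelial cells, CDH1 (E-cadherin) is the transmembrane cadherin of adherens junctions, and CLDN4 and CLDN7 are claudins, which set the permeability of tight junctions. Keratin filaments are obligate heteropolymers of a type II and a type I chain. KRT7 and KRT8 are type II chains and KRT18 and KRT19 type I chains, together the keratins of simple, single-layered epithelia, with KRT8 and KRT18 the first keratins made in a mammalian embryo. AP1M2 is the medium subunit of the epithelial form of the AP-1 clathrin adaptor, which sorts membrane proteins to the basolateral surface.

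After filtering (200 to 6000 genes, 1000 to 30000 unique molecular identifiers (UMIs) and at most 10% mitochondrial UMIs per cell), 9618 E19 HSTS cells, 10629 E19 HS cells and 11329 E16 HS cells remained, 31576 in all, with median depths of 8675, 6900 and 9046 UMIs per cell. There is 1 library per group, so no difference between groups could be tested. The 95% intervals given are exact (Poisson for levels, binomial for shares and ratios) and cover counting error only, not variation between embryos. Blood progenitor-like cells took 17.7% of the E16 HS library, 13.4% of the E19 HS library and 27.4% of the E19 HSTS library, and their median depth over the 3 libraries was 16377 UMIs. These cells should lack the 9 genes, so their share of cells with a UMI serves as the background of free RNA. The libraries shared between 38 and 42 cell barcodes pairwise.

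The 3 keratins *KRT8*, *KRT18* and *KRT19* made up most of the counted molecules of the set, and *CDH1* was close to undetected. Over the 3 libraries together *KRT18* gave 241895 UMIs in 14485 cells and *KRT19* 230229 UMIs in 13131 cells, while *KRT8* gave 48102 UMIs in 8781 cells. *EPCAM* was counted 12826 times in 4857 cells, *CLDN7* 8050 times in 2981 cells, *CLDN4* 7217 times in 2669 cells, *KRT7* 6239 times in 1950 cells and *AP1M2* 3781 times in 1907 cells. *CDH1* gave only 577 UMIs in 495 cells. UMIs taken at 3′ ends depend on the annotated end of each gene and are not scaled by length, so these counts rank how often each gene was sampled and not its number of transcripts per cell.

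In whole libraries, the level of a gene is given as UMIs per 1000000 UMIs of the kept cells (CPM). Values are listed for E19 HSTS first, E19 HS second and E16 HS last. *EPCAM* stood at 30.8, 35.4 and 58.5 CPM. *CDH1* stood at 1.65, 2.05 and 2.04 CPM. The epithelial adhesion gene was therefore highest in the younger library and the cadherin was nearly level between the Hu sheep libraries. *CLDN4* was at 21.7, 21.1 and 28.2 CPM, and *CLDN7* at 19.1, 21.8 and 37.2 CPM. *KRT7* was at 10.6, 13.4 and 35.3 CPM. Both claudins and the type II keratin *KRT7* were again highest in E16 HS. *KRT8* was at 73.3, 70.0 and 306 CPM, *KRT18* at 365, 434 and 1476 CPM, and *KRT19* at 262, 311 and 1559 CPM. *AP1M2* was at 8.0, 9.84 and 18.6 CPM. The E16 HS values of *KRT8*, *KRT18* and *KRT19* thus lay several-fold above both E19 values, which lay close to each other. In such sums, fewer cells of a type and less RNA per cell cannot be told apart.

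**Figure D1:**
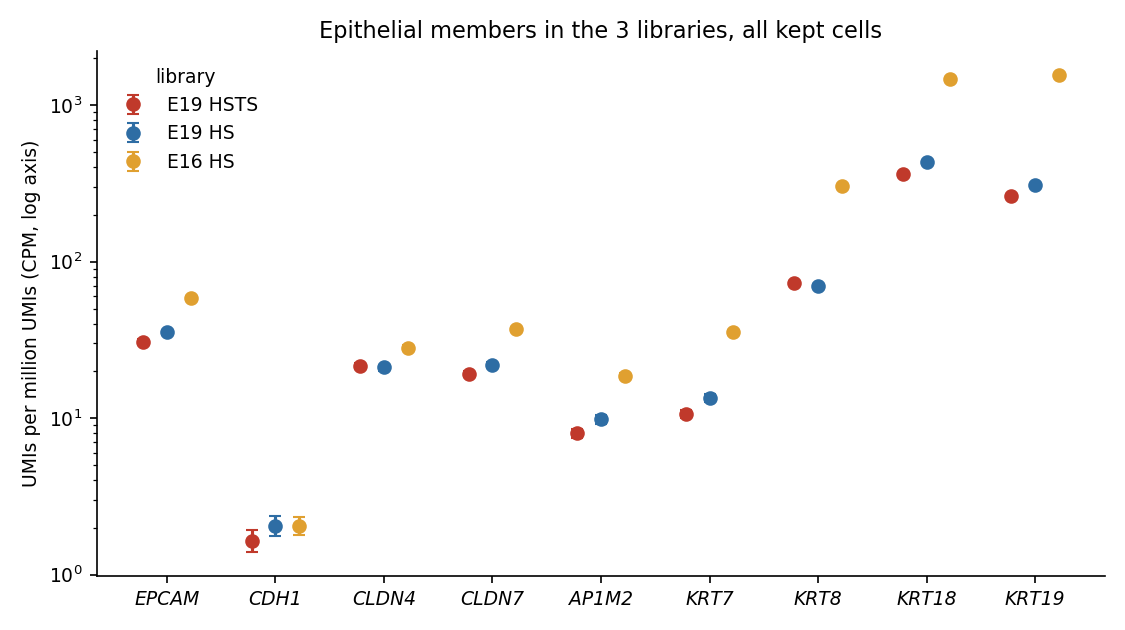
Level of each of the 9 genes in the 3 libraries, in CPM over the kept cells on a log axis, with bars for the exact 95% Poisson interval (counting error only). E16 HS is the highest point for every gene but *CDH1*, and its separation is widest for *KRT19* (1559 against 311 CPM in E19 HS).

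The share of cells with at least 1 UMI was read beside the levels. *KRT18* was detected in 32.8%, 36.3% and 66.0% of cells, in the order used above. *KRT19* was detected in 27%, 29.9% and 64.9%, and *EPCAM* in 11.2%, 13.3% and 20.9%. All 9 shares were highest in E16 HS, and remained so when each cell was thinned to 3000 UMIs, where *KRT18* was found in 25.4%, 29.5% and 52.8% and *EPCAM* in 6.71%, 7.42% and 12.1% of cells. Thinning left out 1106, 1345 and 1317 shallower cells. The background of free RNA was itself uneven. In the same order, *KRT19* was found in 13.9%, 11.5% and 46.8% of blood progenitor-like cells, and *KRT18* in 8.05%, 8.65% and 30.5%. It was lower for the other genes, with *EPCAM* at 1.44%, 1.69% and 3.64%. The part of free RNA in the keratin shares was not tested.

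To place the genes in cells, the 3 libraries were clustered together with the 9 genes taken out of the variable genes, and clusters were named only from marker lists that hold none of them. Of the 18 clusters, 4 were epithelial and held 3726 cells: 1474 of E16 HS (13.0%), 1252 of E19 HS (11.8%) and 1000 of E19 HSTS (10.4%). The largest of the named epithelia was nephric-like (1583 cells, with *CDH16*, a kidney cadherin, as the marker among its leading genes and found in 21.7% of the cells). A second was led by *CXCL14* (1516 cells), with the ectodermal genes *TFAP2A* and *DLX5* among its leading genes. The others were endodermal-like (288 cells, *APOA2* in 97.9% of them) and a *UPK3A* cluster (339 cells, named for its uroplakin gene), which held 329 cells of E16 HS, 7 of E19 HS and 3 of E19 HSTS. No cluster could be called gut-like from the markers. The *CXCL14*-led cluster was mixed, so gates were set inside it, chosen after the clusters were seen: 100 surface ectoderm cells with a UMI of *TP63*, and 120 cells without *TP63* but with a UMI of *FOXA1*, *FOXA2*, *SHH*, *NKX2-1* or *HHEX*, called gut-gate cells below. The gut gate left out the 47 cells of a notochord-like sub-cluster, 53.2% of which had a UMI of *SHH*. Within the nephric-like cluster, 235 cells with at least 2 UMIs of *CDH16* were gated. The 24900 cells of the named other clusters are called non-epithelial, and the 2870 shallow and 80 other cells of unnamed clusters belong to neither.

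The set fell into 2 kinds of gene. *EPCAM*, *CDH1*, *CLDN4*, *CLDN7*, *KRT7* and *AP1M2* were at least 10-fold higher in the epithelial clusters than in non-epithelial cells. *KRT8*, *KRT18* and *KRT19* were between 2.41-fold and 2.85-fold higher. For *KRT19*, 20527 of the 61577 epithelial UMIs lay in a sub-cluster of 171 cells that the marker rule named mesenchyme-like. Its ratio without those cells was not computed. Of 13288 genes with enough UMIs, 2.72% reached 10-fold and 14.0% reached 2-fold, and the median gene was at 1.27-fold. *KRT7* showed the highest ratio, 142 against 1.77 CPM (80.1-fold, 72.8 to 88.4). *AP1M2* followed at 82.6 against 1.5 CPM (55.0-fold), *CDH1* at 12.8 against 0.248 CPM (51.8-fold, 39.8 to 68.4) and *CLDN4* at 160 against 3.23 CPM (49.5-fold). *CLDN7* was at 171 against 4.36 CPM (39.2-fold) and *EPCAM* at 233 against 13.4 CPM (17.4-fold). The order of *AP1M2*, *CDH1* and *CLDN4* lies within their counting intervals.

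The 3 broad keratins reached high levels in both compartments. *KRT18* was at 1797 CPM in epithelial and 630 CPM in non-epithelial cells (2.85-fold), *KRT19* at 1549 and 639 CPM (2.42-fold) and *KRT8* at 315 and 131 CPM (2.41-fold). Their separation differed by library. For *KRT19* the ratio was 1.65 in E16 HS, 3.89 in E19 HS and 5.49 in E19 HSTS, and for *KRT8* it was 1.70, 3.41 and 4.29. *EPCAM* also separated less sharply in E16 HS, at 9.46, 22.9 and 55.7, so the lowest ratio of each of these genes was in the younger library.

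The location of the molecules shows the same division. Epithelial clusters were 11.8% of the cells and held 90.3% of all *KRT7* UMIs, 88.4% of *CDH1*, 87.9% of *CLDN4*, 86.8% of *AP1M2*, 84.5% of *CLDN7* and 72.2% of *EPCAM*. They held only 29.5% of *KRT18*, 26.7% of *KRT19* and 26.0% of *KRT8*. Most of the other keratin molecules lay in mesenchyme-like and somite-like cells. The mesenchyme-like cluster held 46.6% of *KRT19*, 35.1% of *KRT8* and 27.4% of *KRT18*, and the somite-like clusters 31.4% of *KRT18*, 28.1% of *KRT8* and 19.8% of *KRT19*. The *EPCAM* outside epithelia lay mainly in caudal progenitor-like cells (11.2% of its UMIs) and neural tube-like cells (8.41%).

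Each epithelium had its own mixture. In the *CXCL14*-led cluster, *EPCAM* was at 329 CPM and detected in 86.7% of cells, *CLDN7* at 269 CPM in 83.4%, and *AP1M2* at 125 CPM in 63.7%. *CLDN4* was at 133 CPM in 59.2%, *KRT7* at 151 CPM in 62.3% and *CDH1* at 21.7 CPM in 17.5% of its cells. E-cadherin was caught about as often in *UPK3A* cells (19.5%) and endodermal-like cells (18.1%). *KRT18* was at 3218 CPM, *KRT19* at 2491 CPM and *KRT8* at 578 CPM, and a typical cell held 20 UMIs of *KRT18* (quartiles 9 and 39), 10 of *KRT19* and 3 each of *KRT8* and *EPCAM*. This was the epithelium with the highest *KRT18* and *KRT8*. A sub-cluster of 171 cells, which the marker rule named mesenchyme-like, held 20527 of the 36767 *KRT19* UMIs of the cluster.

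The *UPK3A* cluster, nearly all from E16 HS, was the fullest expresser of the set. *KRT7* reached 562 CPM and was found in 92.9% of cells, and *CLDN4* reached 389 CPM in 94.7%. *KRT19* reached 3392 CPM, with a median of 40 UMIs per cell, and *AP1M2* 183 CPM. Summed over the 3 libraries, *KRT7*, *CLDN4*, *CLDN7* (310 CPM), *KRT19* and *AP1M2* were therefore higher here than in any other epithelial cluster. *KRT18* (1861 CPM) was lower than in the *CXCL14*-led cells. Within E16 HS alone, the *CXCL14*-led cluster stood at 3649 CPM for *KRT19*, above the *UPK3A* value. With 10 cells from the E19 libraries, nothing about the stage can be read from the *UPK3A* cluster.

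In the endodermal-like cells *CLDN4* was the prominent junction gene, at 253 CPM in 73.6% of cells, while *CLDN7* was at 89.1 CPM in 41.3% and *KRT7* at 18.8 CPM in 14.2%. *EPCAM* was at 168 CPM in 68.1% and *CDH1* at 17.9 CPM in 18.1%. The cadherin level was near that of the *CXCL14*-led cluster, and the *EPCAM* level was well below it. Doublet scores in the top 8% were held by 29.2% of the endodermal-like cells, against 14.7% in the *UPK3A* cluster and 10.4% in the *CXCL14*-led cluster, and the part of doublets in these mixtures was not tested.

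Summed over the 3 libraries, nephric-like cells had the lowest CPM among the 4 epithelial clusters for every gene but *KRT7*. *KRT7* was lower in endodermal-like cells. This order differed within the E19 libraries. In both, *CLDN7*, *KRT8*, *KRT18* and *AP1M2* were higher in nephric-like than in endodermal-like cells. For *CLDN7* the values were 95.4 against 83.2 CPM in E19 HSTS and 69.6 against 57.2 CPM in E19 HS. In E19 HS *KRT19* was higher in nephric-like cells too, at 366 against 288 CPM. In the summed nephric-like cells, *EPCAM* was at 135 CPM in 57.5% of cells and *CLDN4* at 96.4 CPM in 31.8%. *CLDN7* was at 59.5 CPM in 25% and *KRT7* at 32.7 CPM in 14.2%. *CDH1* was at 3.11 CPM in 3.03%. The *CDH16*-gated cells within them, 130 from E19 HSTS, 105 from E19 HS and none from E16 HS, had fuller values, with *CLDN4* at 279 CPM in 89.4% of cells, *EPCAM* at 156 CPM in 80.9%, *CLDN7* at 140 CPM in 63.8% and *KRT7* at 70.1 CPM in 34.9%. In the 1240 nephric-like cells without a *CDH16* UMI, *CLDN4* was at 38.3 CPM and *KRT7* at 19.1 CPM, but *EPCAM* was still at 123 CPM. *CDH1* remained low in the *CDH16*-gated cells too, at 5.34 CPM in 7.23%, in cells where the kidney cadherin itself was the gating gene.

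**Figure D2:**
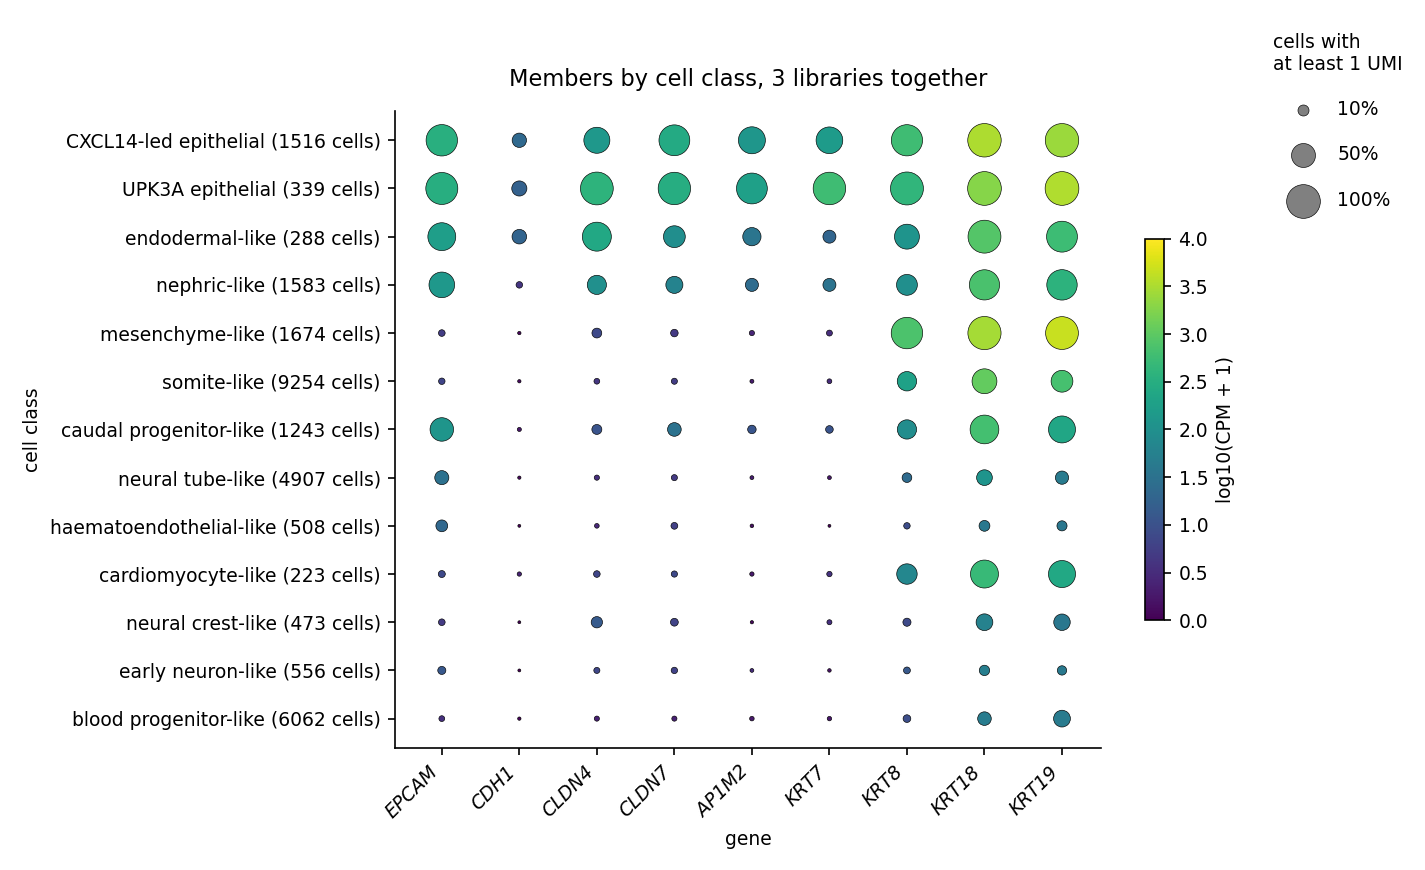
Level and detection of the 9 genes in each class of cells over the 3 libraries; dot area gives the percentage of cells with at least 1 UMI and colour the level as log10(CPM + 1). *KRT8*, *KRT18* and *KRT19* run on into mesenchyme-like and somite-like cells, while *KRT7*, *CLDN4* and *AP1M2* fall away outside the epithelial classes.

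Surface ectoderm and gut-gate cells were close to each other in most of the set. *EPCAM* was at 275 CPM in the *TP63*-gated cells and 412 CPM in the gut-gate cells, *CLDN7* at 264 and 279 CPM, *KRT7* at 140 and 157 CPM, and *AP1M2* at 112 and 134 CPM. The widest gap was in *KRT19*, at 1944 CPM in the *TP63*-gated cells and 1004 CPM in the gut-gate cells. By library, *KRT19* in the gut-gate cells was at 1092 CPM in E16 HS, 596 CPM in E19 HS and 1216 CPM in E19 HSTS, and in the *TP63*-gated cells at 2970, 1571 and 1356 CPM. The *TP63*-gated value exceeded the gut-gate value in all 3 libraries, by a margin that ran from small in E19 HSTS to wide in both Hu sheep libraries, on 29 to 46 cells per library. Over the 3 libraries, the highest *TP63*-gated cell held 431 of the 2213 *KRT19* UMIs of its gate. The highest gut-gate cell held 199 of 1169. The median cell held 13 *KRT19* UMIs in the *TP63* gate and 6 in the gut gate. No interval is given for the margins by library.

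Splitting the *CXCL14*-led cluster further gave 11 sub-clusters. Outside a notochord-like sub-cluster, *AP1M2* ranged from 116 to 141 CPM, *CLDN7* from 209 to 349 CPM, *EPCAM* from 204 to 468 CPM and *CLDN4* from 68.9 to 225 CPM. *KRT19* ranged from 732 CPM to 10673 CPM, the latter in 171 cells led by the neuropeptide gene *TAC3* with the collagen genes *COL1A1* and *COL1A2* also among the leading genes, where the *KRT19* to *KRT18* ratio was 2.70 against 0.774 in the whole cluster. *KRT18* peaked at 8110 CPM in 146 cells led by *CRABP1*, a retinoic acid-binding protein, of which 142 came from E16 HS. *KRT8* was at 1235 CPM in the *TAC3*-led and 1227 CPM in the *CRABP1*-led cells.

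The notochord-like sub-cluster departed from all others. Its 47 cells had a UMI of *T* in 57.4% and of *SHH* in 53.2%. *KRT19* was detected in 100% of them, *KRT18* in 89.4% and *KRT8* in 66.0%, and *EPCAM* in 42.6%. *CLDN7* was detected in 2.13%, *CLDN4* and *AP1M2* in 4.26% each, and *KRT7* in 6.38%. Notochord-like cells thus carried the broad keratin pair at levels similar to epithelium (*KRT18* 2294 CPM, *KRT19* 2424 CPM) with the tight junction and sorting genes near the share seen in blood progenitor-like cells, where *CLDN7* and *CLDN4* were each found in 1.58%.

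Beyond epithelia, the mesenchyme-like cluster was the strongest source of keratin. It held 1674 cells, 1565 of them from E16 HS, and showed *COL1A2*, a type I collagen chain, in 97.7% of cells. *KRT19* was at 4689 CPM, above every epithelial cluster, with a median of 58 UMIs per cell. *KRT18* was at 2898 CPM in 96.7% and *KRT8* at 737 CPM in 86.9% of cells. *EPCAM* was at 4.10 CPM in 3.17%, *KRT7* at 2.31 CPM in 2.39% and *CDH1* at 0.175 CPM. The keratins were thus at epithelial levels and *EPCAM* close to its share in blood progenitor-like cells (2.23%), while *CLDN4* was found in 7.77%. The few E19 cells of the cluster had the same pattern, with *KRT19* detected in 100% of 68 E19 HS cells and 97.6% of 41 E19 HSTS cells, and *EPCAM* in 1.47% and 0% of them. With 0 of 41 cells, counting error alone allows a share of up to 8.6% (exact binomial).

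Somite-like cells carried less keratin per cell, with *KRT18* at 1100 CPM in 54.0% of 9254 cells, *KRT19* at 660 CPM in 41.3% and *KRT8* at 195 CPM in 32.6%. The name depended on the resolution. *POSTN* and *IGFBP3* led a somite-like cluster, and at resolution 1.0 a cluster of 2152 cells led by these genes was named mesenchyme-like. Cardiomyocyte-like cells had lower levels in a larger share of cells, with *KRT18* at 500 CPM in 68.6% and *KRT19* at 253 CPM in 64.1%. All these shares exceeded those of the more deeply sequenced blood progenitor-like cells (15.6% for *KRT18*, 24.2% for *KRT19* and 4.50% for *KRT8*), and the median depths were 6809 UMIs in somite-like and 7695 UMIs in cardiomyocyte-like cells.

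*EPCAM* had its own distribution outside epithelium. It was at 119 CPM in 48.2% of 1243 caudal progenitor-like cells (1119 from E16 HS), a level near that of nephric-like cells. It was at 28.7 CPM in 16.8% of neural tube-like cells and at 20.3 CPM in 11.6% of haematoendothelial-like cells. After thinning, the caudal share was 24.9% and the neural tube share 7.72%, against 0.541% in blood progenitor-like cells. In neural tube-like cells the share was 39.8% in E16 HS, 13.3% in E19 HS and 11% in E19 HSTS. The claudins did not accompany it there, with *CLDN4* in 1.65% and *CLDN7* in 2.55% of neural tube-like cells. *CLDN4*, in turn, was found in 10.6% of 473 neural crest-like cells, where *EPCAM* was found in 3.17%.

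**Figure D3:**
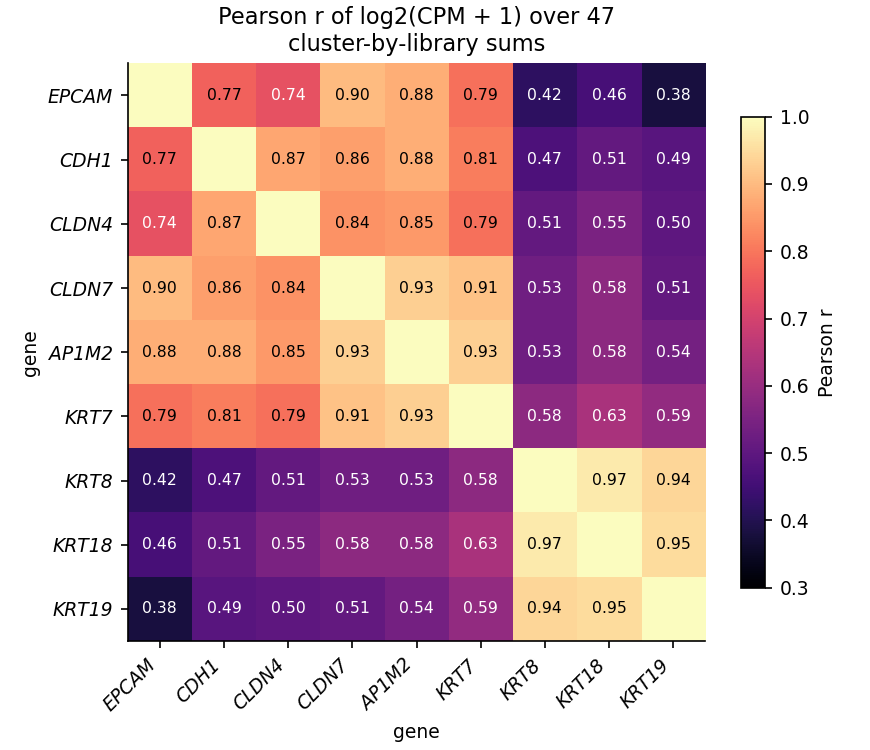
Pearson correlation of each pair of the 9 genes over 47 sums, each 1 cluster in 1 library, on the log2(CPM + 1) scale. A block of *KRT8*, *KRT18* and *KRT19* (0.94 to 0.97) and a block of the other 6 genes (0.74 to 0.93) stand out, with 0.38 to 0.63 between them.

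The 2 kinds of gene were also visible in how their levels ran together over 47 sums of 1 cluster in 1 library each. *KRT8* and *KRT18* correlated at 0.97, *KRT18* and *KRT19* at 0.95, and *KRT8* and *KRT19* at 0.94. *CLDN7* and *KRT7* each correlated with *AP1M2* at 0.93, and *EPCAM* with *CLDN7* at 0.90. Across the divide the values ran from 0.38 (*EPCAM* with *KRT19*) to 0.63 (*KRT7* with *KRT18*). *KRT7* therefore varied with the junction genes and not chiefly with the other type II keratin, *KRT8* (0.58). These are descriptions: the sums of a library share its depth and free RNA, and the clusters of a library share an embryo or a pool. The genes whose pattern was most like the mean of the 9 were *KRTCAP3* (0.882), *WFDC2* (0.880), *GNMT* (0.864), *HPN* (0.853) and *TPD52L1* (0.844). Among genes outside the 9 with at least 500 UMIs, *AP1M2* ran closest with *KRTCAP3* (0.952) and *EPCAM* with *OCLN* (0.865), the tight junction protein occludin, and *KRT8*, *KRT18* and *KRT19* with *MYOF* (0.888, 0.888 and 0.904).

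Combinations within single cells were counted next, because filaments need both keratin types and an epithelium needs its junctions. A cell was scored for *EPCAM*, for either claudin and for a keratin pair, meaning a UMI of *KRT7* or *KRT8* together with a UMI of *KRT18* or *KRT19*. All 3 were present in 1002 of 11329 E16 HS cells (8.84%, 8.33 to 9.38), 607 of 10629 E19 HS cells (5.71%, 5.28 to 6.17) and 557 of 9618 E19 HSTS cells (5.79%, 5.33 to 6.28). The E19 libraries lay within each other's counting interval and E16 HS lay above both. At 3000 UMIs per cell the shares were 4.11%, 2.12% and 2.02%, in the same arrangement.

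By class, the full combination was present in 89.4% of *UPK3A* cells, 83.3% of gut-gate cells, 79.0% of *TP63*-gated cells and 77.1% of the *CXCL14*-led cluster. It was present in 57.4% of *CDH16*-gated cells, 41.3% of endodermal-like and 20.2% of nephric-like cells. Outside epithelia it was found in 8.37% of caudal progenitor-like cells, 0.912% of all non-epithelial cells and 0.528% of blood progenitor-like cells. The mean number of the 9 genes detected per cell was 7.68 in *UPK3A* cells, 6.71 in gut-gate cells, 6.55 in the *CXCL14*-led cluster, 5.72 in *CDH16*-gated cells, 4.77 in endodermal-like, 3.45 in nephric-like, 2.98 in mesenchyme-like and 2.51 in caudal progenitor-like cells. Median depth was 14328 UMIs in *UPK3A*, 12576 in *CDH16*-gated, 11311 in endodermal-like and 8690 in *CXCL14*-led cells. Thinned to 3000 UMIs, the means were 5.75 in *UPK3A*, 4.71 in gut-gate, 4.65 in *CXCL14*-led and 4.31 in *TP63*-gated cells. *CDH16*-gated (3.21) and endodermal-like cells (3.09) then lay close. At this depth, mesenchyme-like cells (2.54) stood above nephric-like (2.00) and caudal progenitor-like cells (1.38). The thinned shares of the full combination by class are not given here.

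**Figure D4:**
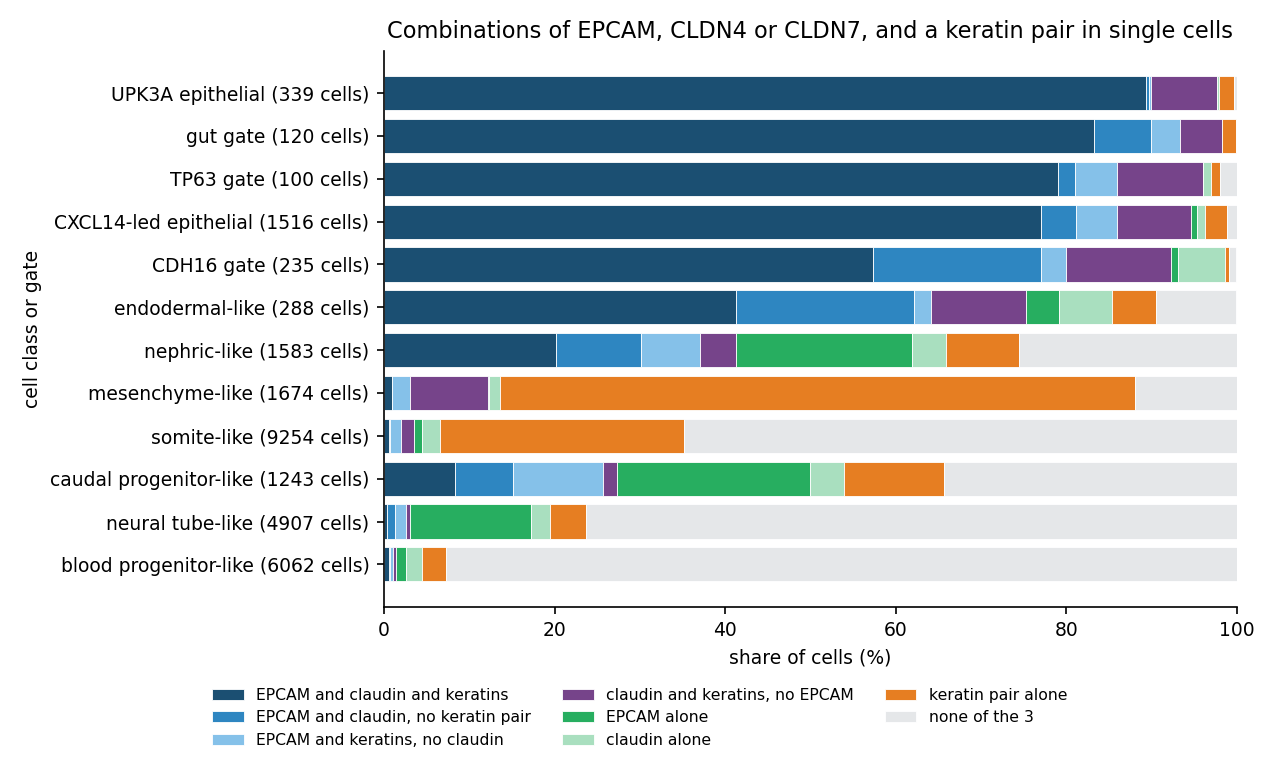
Share of cells in each class with each combination of *EPCAM*, a claudin (*CLDN4* or *CLDN7*) and a keratin pair (a type II with a type I keratin), in percent, over the 3 libraries. The full combination fills 89.4% of *UPK3A* cells and 0.956% of mesenchyme-like cells, where the keratin pair alone takes 74.4%.

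Partial combinations marked particular classes. The keratin pair without *EPCAM* or a claudin was present in 74.4% of mesenchyme-like, 33.2% of cardiomyocyte-like and 28.6% of somite-like cells. *EPCAM* alone was present in 22.6% of caudal progenitor-like, 20.6% of nephric-like, 14.2% of neural tube-like and 10.2% of haematoendothelial-like cells. A claudin alone was most frequent in neural crest-like cells (12.7%). *EPCAM* with a claudin but no keratin pair was seen in 20.8% of endodermal-like and 19.6% of *CDH16*-gated cells, compared with 4.09% in the *CXCL14*-led cluster. No gene of the set was detected in 18.0% of E16 HS cells, 51.9% of E19 HS cells and 55.7% of E19 HSTS cells.

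Conditional shares show which gene implied which. Among cells with *AP1M2*, 95.8% had *KRT18* and 83.2% had *EPCAM*. Among cells with *KRT18*, only 26.4% had *EPCAM* and 12.6% had *AP1M2*. *KRT8* came almost always with its filament partner, since 94.0% of *KRT8*-positive cells had *KRT18*.

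The balance among keratins and claudins was then compared between classes. The UMI ratio of type II (*KRT7* plus *KRT8*) to type I (*KRT18* plus *KRT19*) chains was 0.136 in all epithelial and 0.104 in all non-epithelial cells, and among the 4 epithelial clusters it ranged from 0.0958 (0.0867 to 0.106) in endodermal-like to 0.186 (0.180 to 0.191) in *UPK3A* cells. Such ratios are read between classes only and are no ratio of molecules. In other mammals *KRT8* and *KRT18* have many processed pseudogenes, and reads shared with a copy could be dropped in counting, whose part in the ratios was not tested.

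The narrower ratios moved more. *KRT7* over *KRT8* was 1.36 (1.29 to 1.44) in *UPK3A* cells, 0.492 in *CDH16*-gated cells, 0.401 in gut-gate cells, 0.261 in the *CXCL14*-led cluster, 0.161 in endodermal-like cells and 0.00314 in mesenchyme-like cells. The *UPK3A* cluster was thus the only class named here in which *KRT7* outnumbered *KRT8*. The order of the other classes depends on their mix of libraries. In the *CXCL14*-led cluster, *KRT7* and *KRT8* stood at 132 and 910 CPM in E16 HS and 169 and 307 CPM in E19 HS. In E19 HSTS they stood at 158 and 422 CPM. The *CDH16* gate held no E16 HS cells. *KRT19* over *KRT18* was 1.82 (1.78 to 1.87) in *UPK3A* cells and 1.62 (1.60 to 1.63) in mesenchyme-like cells. It was 0.774 in the *CXCL14*-led cluster, 0.514 in nephric-like cells and 0.377 in gut-gate cells. The *CXCL14*-led value was raised by its *TAC3*-led sub-cluster (2.70). Outside that and the notochord-like sub-cluster (1.06), its sub-clusters ran from 0.306 to 0.574, on either side of the nephric-like value. *CLDN7* over *CLDN4* was 2.17 in *TP63*-gated cells, 2.02 in the *CXCL14*-led cluster and 1.68 in gut-gate cells, but 0.798 in *UPK3A* cells, 0.617 in nephric-like, 0.502 in *CDH16*-gated and 0.352 (0.307 to 0.403) in endodermal-like cells. By library, the nephric-like ratio was 0.547 in E19 HSTS and 0.574 in E19 HS, but 2.31 (1.67 to 3.23) in E16 HS, on 127 and 55 UMIs.

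In the comparison of breeds at E19, the whole-library levels of the set were close. Divided by the E19 HS level, the E19 HSTS level lay between 0.792 (*KRT7*, 0.728 to 0.861) and 1.05 (*KRT8*, 1.01 to 1.08), and 0 of the 9 genes passed 1.5-fold, where 11.8% of 12439 genes did and the median gene was at 0.963. *KRT18* was at 0.840 (0.828 to 0.852), *KRT19* at 0.844, *EPCAM* at 0.871 and *CLDN4* at 1.03 (0.966 to 1.09). Deeply sequenced blood progenitor-like cells were 27.4% of E19 HSTS and 13.4% of E19 HS cells. Without them all 9 ratios were above 1, from 1.03 (*CDH1* and *KRT7*) to 1.34 (*KRT8*), while the median gene was at 1.16. *KRT18* and *KRT19* were then at 1.08 and *EPCAM* at 1.13. The direction thus turned with the blood share for every gene but *CLDN4* and *KRT8*, which were above 1 in both cases. Within the epithelial clusters the ratios lay between 0.878 (*CDH1*) and 1.25 (*KRT8*), again with 0 of 9 past 1.5-fold (12.1% of all genes). There *EPCAM* was at 1.16, *KRT19* at 1.09, *CLDN7* at 1.02 and *KRT18* at 1.01, while the median gene was itself at 1.11.

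The breeds were then compared within single classes. In nephric-like cells, where the median gene was at 1.06, 8 of the 9 ratios were above 1, from 1.12 (*CDH1*, on 26 and 22 UMIs) to 1.61 (*AP1M2*, 1.29 to 2.02, the only gene past 1.5-fold, 12.1% of genes in this class), and *KRT19* was at 0.928. *CDH16* was found in 36.8% of these cells in E19 HSTS and 27.4% in E19 HS, at median depths of 10127 and 7893 UMIs. The *CDH16* level was 136 CPM in E19 HSTS and 121 CPM in E19 HS. Whether the share of *CDH16*-positive cells differed beyond depth, and its part in the ratios, was not tested. In endodermal-like cells *KRT19* was at 503 against 288 CPM (1.75, 1.54 to 1.98; 18.6% of genes in this class). The count of the set past 1.5-fold was thus 1 of the 8 genes with enough UMIs in either class, which is near the share of all genes in nephric-like and below it in endodermal-like cells. Among non-epithelial cells *EPCAM* was at 4.38 CPM in E19 HSTS and 9.23 CPM in E19 HS (0.475, 0.418 to 0.538), *KRT7* at 0.483 and *AP1M2* at 0.524, where 13.0% of genes passed 1.5-fold. Deep blood progenitor-like cells with little *EPCAM* were 2635 of the 7928 non-epithelial cells of E19 HSTS and 1422 of the 8525 of E19 HS. Without them the *EPCAM* ratio was 0.578 (0.504 to 0.663), and it was 0.924 (0.652 to 1.31) in somite-like cells. Somite-like cells held only 147 *KRT7* UMIs over the 3 libraries, and the part of free RNA in them was not tested. Their *KRT7* ratio was 0.409 (0.239 to 0.678), where 15.6% of genes passed 1.5-fold. In mesenchyme-like cells, 41 and 68 of them, *KRT8* was at 1.79 (1.54 to 2.08), where 16.7% did. Over all non-epithelial cells *KRT8* was at 0.997. For *EPCAM* the gap was wider in haematoendothelial-like cells, at 5.19 against 31.8 CPM, than in neural tube-like cells, at 16.9 against 22.1 CPM. The haematoendothelial-like values rest on 169 E19 HSTS and 286 E19 HS cells, with top doublet scores in 24.3% and 16.1% of them. No interval is given for these levels, and the part of doublets was not tested.

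In the comparison of stages within Hu sheep, the set was higher at E16, and most of all in its broad keratins. *KRT19* was 5.02-fold (4.95 to 5.08), *KRT8* 4.37-fold (4.25 to 4.49) and *KRT18* 3.40-fold higher in E16 HS than in E19 HS. *KRT7* was 2.64-fold, *AP1M2* 1.90-fold, *CLDN7* 1.71-fold and *EPCAM* 1.65-fold higher. *CLDN4* at 1.34 and *CDH1* at 0.995 (0.816 to 1.21) did not pass 1.5-fold. Thus 7 of 9 were higher by this measure and 0 lower, where 22.1% of 12580 genes were higher and 33.4% differed in either direction, with a median ratio of 1.17. This comparison uses the same E19 HS library as the comparison of breeds. TMM scaling, which corrects for composition, lowered every stage ratio by 0.21 on the log2 scale and brought the median gene to 1.01. *EPCAM* (1.43) and *CLDN7* (1.48) were then under 1.5-fold and 5 genes remained past it. This scaling moved all genes alike, so the lower count says nothing particular to this set. The share of all genes past 1.5-fold after it is not given here.

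**Figure D5:**
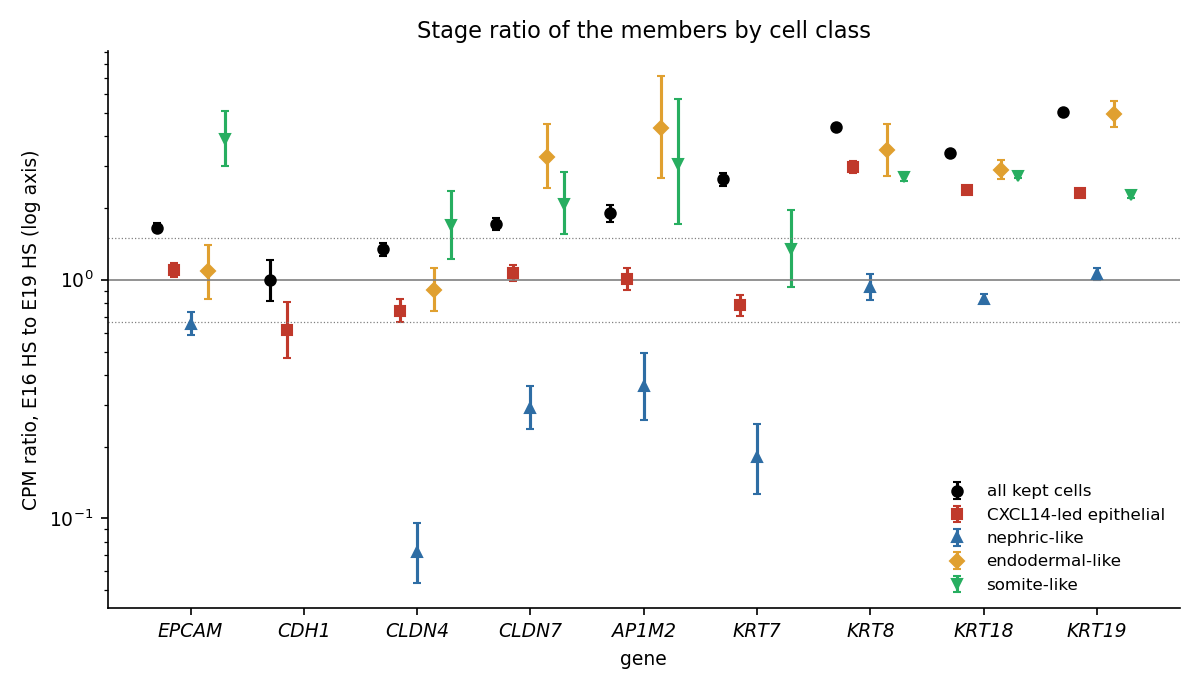
Ratio of the CPM in E16 HS to that in E19 HS for each gene, over all kept cells and within 4 classes, on a log axis with exact 95% intervals (counting error only), a line at 1 and dotted lines at 1.5-fold in either direction; points with under 50 UMIs are left out. In nephric-like cells *CLDN4* (0.0724), *KRT7* (0.180), *CLDN7* (0.291), *AP1M2* (0.360) and *EPCAM* (0.654) lie under the lower dotted line, while *KRT8*, *KRT18* and *KRT19* lie near 1.

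The stage ratio depended on which cells were compared. Within the epithelial clusters only the 4 keratins passed 1.5-fold (*KRT19* 2.68, *KRT8* 2.54, *KRT7* 2.19 and *KRT18* 1.90; 13.7% of genes were higher and 25.5% differed), with *EPCAM* at 1.14, *CLDN4* at 1.02 and *CDH1* at 0.717. In the *CXCL14*-led cluster (581 and 540 cells), *KRT8* was at 910 against 307 CPM (2.96), *KRT18* at 4954 against 2083 CPM (2.38) and *KRT19* at 3649 against 1579 CPM (2.31). There *EPCAM* was at 1.10, *CLDN7* at 1.07, *AP1M2* at 1.01 and *CLDN4* at 0.743 (0.666 to 0.829), and *CDH1* was lower at 0.618 (0.471 to 0.808; 23.0% of genes differed). *KRT7*, at 0.780, did not follow the other keratins there. The libraries filled different sub-clusters of this cluster, with 102 E16 HS and 34 E19 HS cells in the *TAC3*-led, 158 and 4 in an *FZD4*-led, and 142 and 2 in the *CRABP1*-led sub-cluster. In the 4 sub-clusters with at least 20 cells of both libraries, chosen after the data were seen, the ratio ran from 1.00 to 2.57 for *KRT8*, from 0.996 to 1.92 for *KRT18* and from 0.924 to 1.4 for *KRT19*. With only the *FZD4*-led and *CRABP1*-led sub-clusters left out, the cluster stood at 3.69 for *KRT19*, 3.19 for *KRT8*, 1.87 for *KRT18* and 0.557 for *KRT7*, and *CDH1* was at 0.805 (0.583 to 1.10), no longer past 1.5-fold, so these ratios depended on which sub-clusters were compared. Of the 3588 *KRT7* UMIs in E16 HS epithelia, 2764 lay in the *UPK3A* cluster, which held 19 *KRT7* UMIs in E19 HS.

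In nephric-like cells the junction genes were lower at E16 while the broad keratins were level. *CLDN4* was at 8.79 CPM in E16 HS and 121 CPM in E19 HS (0.0724, 0.0539 to 0.0955), *KRT7* at 7.19 against 40.0 CPM (0.180) and *CLDN7* at 20.3 against 69.6 CPM (0.291). *AP1M2* was at 0.360 and *EPCAM* at 0.654, so 5 genes were lower by 1.5-fold (12.5% of genes in this class were). *KRT8* (0.933), *KRT18* (0.834) and *KRT19* (1.06) stayed within 1.5-fold. *CDH16* was found in 0.395% of the E16 HS nephric-like cells and in 27.4% of those of E19 HS, so the class held few or no *CDH16* cells at E16, and a change in which cells make up the class cannot be told apart from a change within cells.

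Endodermal-like and non-epithelial cells were different again. In 58 E16 HS and 117 E19 HS endodermal-like cells, *KRT19* was 4.95-fold, *AP1M2* 4.33-fold (2.68 to 7.13), *KRT8* 3.50-fold, *CLDN7* 3.28-fold and *KRT18* 2.89-fold higher at E16, with *CLDN4* at 0.909 and *EPCAM* at 1.09 (8.94% of genes in this class were higher). In somite-like cells *EPCAM* was at 11.7 against 3.02 CPM (3.89), *KRT18* at 1934 against 714 CPM (2.71), *KRT8* at 2.70 and *KRT19* at 2.26 (17.9% higher). Over all non-epithelial cells the 8 genes with enough UMIs were from 2.48-fold (*KRT7*) to 6.31-fold (*KRT19*) higher at E16, where 25.9% of genes were. Mesenchyme-like cells, 1565 in E16 HS and 68 in E19 HS, held 101637 of the 130386 *KRT19* UMIs of the non-epithelial E16 HS cells, and within them *KRT19* was at 0.880 (0.851 to 0.911), *KRT8* at 1.43 and *KRT18* at 1.61. Free *KRT18*, *KRT19* and *EPCAM* RNA, as seen in blood progenitor-like cells, was higher at E16 in the same direction. The part of free RNA in these ratios, among them that of *EPCAM* in somite-like cells, was not tested. When the 4 clusters drawn at least 90% from 1 library were left out, among them the mesenchyme-like and *UPK3A* clusters, *KRT8* (4.66), *KRT18* (4.11) and *KRT19* (4.04) remained higher and *KRT7* was at 1.61. Another of the 4 was a blood cluster with 1977 E16 HS cells, while the E19 blood clusters stayed in. With all blood progenitor-like cells left out as well, *KRT8* was at 3.37, *KRT18* at 2.97, *KRT19* at 2.95, *KRT7* at 1.17 and *CLDN4* at 0.716.

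Genes of the same structures, listed by role, were set beside these genes. *LLGL2*, *MARVELD3*, *CLDN3*, *ESRP1*, *GRHL2*, *ELF3*, *TFAP2A*, *TWIST1*, *RAB25* and the protease genes below also stood in the marker lists by which clusters were named. Their ratio between epithelial and other cells was therefore partly set by the naming and is given as a description. Tight junction and polarity genes followed the epithelial pattern, as all 9 with enough UMIs were at least 2-fold higher in epithelial cells (14.0% of all genes were). Among them were *TJP1* (ZO-1, 2.10-fold), *PARD6B* (2.92-fold) and *LLGL2* (3.52-fold). At E16, 4 of the 9 were higher, namely *LLGL2* (2.21), *PATJ* (1.98), *OCLN* (1.65) and *MARVELD2* (1.57), and 0 lower (22.1% of all genes were higher and 11.3% lower). Without blood progenitor-like cells *MARVELD2* was at 1.47.

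Of 7 other claudins measured, 6 were at least 2-fold higher in epithelia, against 14.0% of all genes, with *CLDN19*, a renal claudin, at 147-fold, *CLDN1* at 22.2-fold and *CLDN10* at 9.78-fold, and *CLDN12* was at 0.980. At E16, *CLDN3* (2.35) and *CLDN10* (1.88) were higher, and *CLDN1* (0.588), *CLDN8* (0.265) and *CLDN19* (0.0794, 0.0493 to 0.122) were lower over all kept cells, where 22.1% of all genes were higher and 11.3% lower.

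Of 11 adherens junction and desmosome genes, 6 were at least 2-fold higher in epithelia (14.0% of all genes were), including the desmosomal plaque gene *DSP* (2.45) and the desmosomal cadherin *DSG2* (2.25), while beta-catenin, *CTNNB1*, was at 1.51. At E16, 6 were higher, with *PKP2* at 2.81, *DSP* at 2.54, *CDH3* (P-cadherin) at 2.37 and *DSC2* at 2.11, and *CDH2* (N-cadherin) was lower at 0.536, against the same 22.1% and 11.3% of all genes. Unlike *CDH1*, the cadherin *CDH3* was thus past 1.5-fold between the Hu sheep libraries.

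All 7 measured epithelial regulators were at least 2-fold higher in epithelia, again against 14.0%, with *GRHL2* at 44.6-fold, *ELF3* at 12-fold, *TFAP2A* at 8.42-fold and *KLF5* at 8.19-fold. At E16, *GRHL2* (2.29), *ESRP2* (2.06), *GRHL1* (2.05), *KLF5* (1.95) and *ELF3* (1.77) were higher (22.1% of all genes were). All 4 measured genes of the membrane serine protease list were higher in epithelia too, with the trafficking GTPase *RAB25* at 110-fold, *PRSS8* (prostasin) at 83.2-fold and its inhibitor gene *SPINT1* at 27.6-fold. Of these 4, *RAB25* (3.22) and *ST14* (1.82) were higher at E16, against the same 22.1%.

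Of 6 other AP-1 subunits, *AP1S3* (8.11-fold) reached 2-fold in epithelia, a count near the 14.0% of all genes. *AP1M1*, the ubiquitous counterpart of *AP1M2*, was at 5.08 against 4.50 CPM (1.13-fold), and *AP1S2*, *AP1G1* and *AP1S1* at 0.841, 1.57 and 1.71. At E16, *AP1B1* (1.77) and *AP1S3* (1.76) were higher, 2 of 6 against 22.1% of all genes.

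Other keratins were scarce, apart from *KRT10* (13859 UMIs). Of 9 in the annotation, 2 had enough UMIs: *KRT10*, a keratin of stratified epidermis, at 64.3 CPM in epithelia and 42.5 CPM elsewhere (1.51-fold), and *KRT17* at 11.3-fold on 69 UMIs. *KRT80* gave 41 UMIs. Of 6 mesenchymal counterparts, *TWIST1* (0.109), *SNAI1* (0.173) and *ZEB1* (0.180) were at least 2-fold lower in epithelia (6.25% of all genes were), while *VIM* (vimentin) was at 0.603 and *ZEB2* at 0.502. At E16, *SNAI1* (0.555) and *TWIST1* (0.587) were lower, 2 of 6 against 11.3% of all genes. Without blood progenitor-like cells *ZEB1* (0.596) and *VIM* (0.652) were too, where 14.0% of all genes were lower.

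Between breeds, 7 of the 48 measured genes of these lists passed 1.5-fold (14.6%), close to the 11.8% of all genes. *CLDN8* (1.81) and *PRSS8* (1.51) were higher in E19 HSTS, and *SNAI1* (0.446), *CLDN10* (0.483), *SPINT1* (0.594), *VIM* (0.632) and *KRT10* (0.644) were lower. Without blood progenitor-like cells *VIM* was at 0.811 and *KRT10* at 0.793, inside 1.5-fold, *SPINT1* had under 50 UMIs, and *ESRP1* (1.78), *CLDN19* (1.68) and *CLDN12* (1.59) passed it, where 13.0% of all genes did. *VIM* was at 93.2 CPM in *UPK3A* cells, 414 CPM in the *CXCL14*-led cluster, 1577 CPM in nephric-like and 2412 CPM in mesenchyme-like cells.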

How the data were processed

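Counts of UMIs per gene and cell were used as deposited by the authors, who made them from 10x 3′ v3.1 libraries with Cell Ranger 6.1.2 and the sheep genome Ovis_aries_genome_v1.0, and analysed them in R 4.1.2 with Seurat 4.1.1. The 9 genes and the gene lists were chosen with earlier results of these data known. The filter kept cells having 200 to 6000 genes, 1000 to 30000 UMIs and no more than 10% MT- UMIs, 86.5% to 89.6% of each library (total UMIs kept 88733467 to 113213654). Seurat 5.3.0 (R 4.3.3) clustered the 3 libraries together without integration (LogNormalize to 10000, 2000 variable genes less the 9, mitochondrial share regressed out, 25 components, resolution 0.25), giving 18 clusters named from marker lists. Doublets were not removed, because Scrublet (scanpy 1.11.5) called 2.01%, 0% and 1.75% and so did not work in E19 HS. Cells in the top 8% of scores were left out as an alternative.

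UMIs were summed per class and library. Ratios of CPM carry exact conditional binomial intervals. A gene was counted as past 1.5-fold only with at least 50 UMIs in both libraries together, and the comparison with non-epithelial cells used 2-fold and 10-fold. Detection meant at least 1 UMI. Thinning drew 3000 UMIs per cell (seed 1). Correlations used clusters with at least 20 cells in a library. From each related list, the 3 genes with the most UMIs and any at 2-fold with at least 100 UMIs between libraries were named; *AP1M1*, and genes that spell out a count of 5 or fewer, were added after their values were seen. Some genes of the lists are not reported here. Other alternatives were a stricter filter (at least 500 genes, at most 5% MT-), all deposited cells, blood left out, edgeR 4.0.16 TMM factors, resolution 1.0, 2 UMIs for detection, and, added after the data were seen, sub-clusters, gates, blood left out of non-epithelial cells and of the related lists, and clusters mostly of 1 library left out. Scripts (Python 3.11.15) were tested on simulated data. No sequence or coordinate is printed, because no genome of the files' build was used here.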

Additional observations from a re-analysis of the deposited data

Results flagged for a closer look

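The ratio of E16 HS to E19 HS ran in opposite directions in nephric-like and in non-epithelial cells for 5 of the 9 genes. For *CLDN4* it was 0.0724 in nephric-like and 2.65 in non-epithelial cells, and for *KRT7* 0.180 and 2.48. For *CLDN7* it was 0.291 and 3.24, for *AP1M2* 0.360 and 3.01, and for *EPCAM* 0.654 and 2.75. Over all genes, 12.5% were at least 1.5-fold lower in nephric-like cells and 25.9% at least 1.5-fold higher in non-epithelial cells. The share of genes that did both is not given here. The non-epithelial levels in E16 HS and E19 HS were 3.24 and 1.31 CPM for *KRT7*, 2.90 and 0.963 CPM for *AP1M2*, and 5.24 and 1.98 CPM for *CLDN4*. They were 7.85 and 2.43 CPM for *CLDN7* and 25.4 and 9.23 CPM for *EPCAM*. Free *EPCAM* RNA, as seen in blood progenitor-like cells, was higher at E16 in the same direction. The part of free RNA in the non-epithelial ratios was not tested. With 1 library per group, the difference between the classes was not tested either. *CDH16* was found in 0.395% of E16 HS and 27.4% of E19 HS nephric-like cells.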

How the results depend on the processing

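No gene passed 1.5-fold between breeds under any of the 7 alternatives run, and 6 genes remained at least 10-fold higher in epithelial cells under all 6 run for that comparison. The number past 1.5-fold between stages was 7 and ranged from 5 (TMM scaling) to 8 (all deposited cells), except with epithelial clusters only, where it was 4. TMM scaling moved all genes alike. Of all genes, 22.1% were higher in all kept cells, 16.2% without blood progenitor-like cells and 13.7% in epithelial clusters. No such share is given here for TMM scaling or all deposited cells. The share of cells with *EPCAM*, a claudin and a keratin pair (5.79% in E19 HSTS, 5.71% in the E19 and 8.84% in the E16 Hu sheep library) moved beyond its counting interval to 4.96% in E19 HSTS with the stricter filter, to 5.24% in E19 HS and 9.43% in E16 HS with all deposited cells, and to 5.27% in E19 HSTS and 7.95% in E16 HS without the top doublet scores. It was 7.83%, 6.51% and 10.6% without blood progenitor-like cells, 2.02%, 2.12% and 4.11% at 3000 UMIs, and 3.45%, 2.79% and 5.69% with detection at 2 UMIs, so E16 HS was highest each time while the order of the E19 libraries changed. The type II to type I ratio of epithelial cells was 0.15 at resolution 1.0. All 9 detection shares were highest in E16 HS under every alternative but detection at 2 UMIs, where 8 were. Of single values, 232 of the alternatives moved beyond the counting interval and 110 did not. No paired analysis was possible because each group is 1 library, and leaving out a replicate was not possible for the same reason. Few UMIs limit *CDH1* (577 UMIs), and few cells limit the classes with under 100 cells in a library. E16 HS may hold cells of more than 1 embryo.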
